A study of Mus musculus with 18 samples.

Results

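The members described here were 50 genes of mitochondrial and peroxisomal fatty acid oxidation, among 32285 genes in the count table of the series. They were taken from a list of enzymes, transporters and binding proteins by gene symbol, and a gene was kept if it had at least 10 counts summed over the 18 libraries, which all 50 of the 50 listed genes had. By the main place where their products act, 23 were grouped as mitochondrial, 19 as peroxisomal and 8 as acting in the cytosol or at the endoplasmic reticulum and outer mitochondrial membrane.

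RNA was sequenced from 3 types of kidney region. These were regions without cysts (non-cystic) and cystic regions in which the F4/80 signal was either low (F4/80-low) or high (F4/80-high). F4/80 is a surface protein of mouse macrophages and is encoded by Adgre1. Every region type came from the same 3 kidneys with 2 libraries each, which gave 6 libraries per region type. The mice were male C57BL/6 iKspCre-Pkd1del animals, which carry a kidney-specific Cre that tamoxifen switches on and LoxP sites around exons 2 to 11 of Pkd1, the gene of polycystin-1. All groups shared the Pkd1 knockout genotype, the tamoxifen (12.5 mg/kg by gavage on postnatal days 18 and 19), and killing at a mild cystic phase that was followed by magnetic resonance imaging. No group with intact Pkd1 was among the libraries, so the non-cystic regions were the reference and were themselves tissue of knockout kidneys. The labelled age was 269 for kidneys 1 and 3 and 297 for kidney 2, without a unit. The kidneys are numbered without a mouse of origin, so if some shared an animal the p-values measure only the spread between kidneys.

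Fatty acids are activated to acyl-CoA at membranes, carried into mitochondria as carnitine esters by the CPT enzymes, and shortened there by repeated rounds of dehydrogenation, hydration, dehydrogenation and thiolysis. Peroxisomes take in very long, branched and dicarboxylic acyl-CoA through ABCD transporters, shorten them with oxidases that make hydrogen peroxide, and hand the products on to mitochondria. The proximal tubule, the stretch of the nephron that recovers most of the filtrate, has little glycolysis and runs mainly on fatty acid oxidation, and many of these genes respond to the nuclear receptor PPAR alpha.

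Library totals ran from 5366651 to 9188813 counts. Adgre1 averaged 2.56 ± 0.962 CPM (counts scaled to library depth and composition, SD, n = 3 kidneys) in non-cystic tissue, 6.55 ± 1.65 in F4/80-low tissue and 53.9 ± 14.9 in F4/80-high tissue, the order of the labels. Pkd1 was counted at 4.27 to 9.73, 4.79 to 11.0 and 4.89 to 14.2 CPM in the same order. The counts cover the whole gene, including exons outside the deleted stretch, so they do not check the deletion. In F4/80-low kidney 2, the brown fat gene Ucp1 had 623 and 184 counts in the 2 libraries, Cidea 390 and 81, and the adipocyte gene Adipoq 75 and 19, against at most 8 of any of these in every other library. Replicate 2 of that pair also had 8.90% of its counts in Spp1. The edgeR counts of called members over all 50, the F4/80-low differences and the F4/80-low sum of all 50 are given with and without this pair. Other F4/80-low values include the pair unless stated.

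Per length, the most abundant member in non-cystic regions was Etfb, an electron carrier subunit, at 1606 RPKM (CPM per kilobase of exon, mean of 3 kidneys). Acsm2 followed at 749 RPKM, Slc27a2 at 622, Etfa at 465 and Phyh at 368. At the other end stood Abcd2 at 0.0256 RPKM, Cpt1b at 1.64 and Acot3 at 2.87. In F4/80-high regions Etfb was at 409 RPKM, Etfa at 147, Slc27a2 at 83.8, Scp2 at 77.9 and Phyh at 76.2, and Acsm2 had gone from the second to the sixth place, at 66.6 RPKM. For Etfb, 44.8% of the 50-base stretches of its transcripts also occurred in another gene, so its level is uncertain.

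In F4/80-low cystic regions most fatty acid oxidation genes differed little from non-cystic regions in fitted level, and equality of levels was not tested. None of the 50 was called lower or higher (edgeR quasi-likelihood test, Benjamini-Hochberg adjusted p below 0.05 over 16034 genes), where 0.0249% of all tested genes were called lower and 1.51% higher. At an unadjusted p below 0.05, 3 members were lower and 1 was higher, beside 376 and 1499 of all tested genes. The DESeq2 Wald test also called 0 members, beside 74 of all tested genes lower and 601 higher. The median log2 difference of the members was -0.15, with 36 of 50 below 0, against 0.00 for all tested genes. Over kidneys the members' median was -0.44 in kidney 1, -0.19 in kidney 2 and 0.08 in kidney 3. Without both F4/80-low libraries of kidney 2 the members' median was -0.02, with 26 of 50 below 0, against 0.03 for all genes. In that fit 0 members were called, beside 0 lower and 57 higher of 16751 tested genes. Without kidney 3, Acsm3 alone was called, at -0.74 (adjusted p = 0.0433), beside 29 of 16184 tested genes called lower.

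For every member the F4/80-low libraries overlapped the non-cystic ones in level. The lowest fitted differences were those of Fabp1 at -0.99 ± 0.81, Acot3 at -0.92 ± 0.38 and Acaa2 at -0.63 ± 0.24, with adjusted p of 0.757, 0.383 and 0.331. Without the F4/80-low pair of kidney 2 these were -0.67, -0.63 and -0.56. Acaa2, the last enzyme of the mitochondrial cycle, stood at 336, 382 and 554 CPM (lowest, median and highest library) in non-cystic and 157, 309 and 347 CPM in F4/80-low regions. On the other side lay Abcd2, a gene with few counts, at 1.97 ± 1.07 and Acot1 at 0.57 ± 0.44. Acsl5, a synthetase that activates long-chain fatty acids, was at 0.46 ± 0.16. Adjusted p of these 3 genes were 0.559, 0.743 and 0.262. Without the F4/80-low pair of kidney 2 their differences were 1.45, 0.81 and 0.39.

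In F4/80-high cystic regions nearly the whole module was lower than in non-cystic regions. Of 50 members, 44 fell and 2 rose by the edgeR test, where 19.5% of all tested genes were called lower and 19.7% higher. The members' median log2 fold change was -1.76 against 0.04 for all tested genes. More than 2-fold falls were called for 39 members, beside 1977 of the 16034 tested genes, and more than 4-fold falls for 19 members, beside 694 of them. All 6 F4/80-high libraries lay below all 6 non-cystic libraries in 41 members, as in 13% of tested genes, and above them in 2 members, as in 14.3% of tested genes. These 2 were also the 2 called higher, and 1 of them, Abcd2, passed the low-count filter only through the cystic regions. These are bulk libraries, in which fewer cells of a type and less RNA per cell cannot be told apart.

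The members' median was -1.74 in kidney 1, -1.26 in kidney 2 and -2.21 in kidney 3. Leaving out 1 kidney or library gave 32 to 45 members lower. The 32 came without kidney 1, beside 1622 of 16342 tested genes. The 45 came without non-cystic kidney 2 replicate 1, beside 2987 of 16015. Without kidney 1, the 12 falling genes Cpt2, Hadha, Etfdh, Acot2, Acsm1, Crot, Eci2, Decr2, Acot3, Acot4, Fabp1 and Fabp3 lost their call, with adjusted p from 0.0503 for Fabp1 to 0.157 for Hadha. Scaling by total counts alone moved the median of all tested genes to 0.65 and made 81.8% of called genes higher instead of 50.2%. Under that scaling the members' median was -1.17 and 37 members were lower, beside 1468 of the 16034 tested genes. Hadha changed sign to 0.05 (adjusted p = 0.810), Hadhb, Acot2, Crot, Eci2, Decr2 and Acot3 lost their call (adjusted p from 0.0604 for Crot to 0.702 for Acot2), and Acsl4 was called higher. Without both F4/80-low libraries of kidney 2, 42 members were lower and 1 higher, beside 2793 and 2883 of 16751 tested genes.

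**Figure D1:**
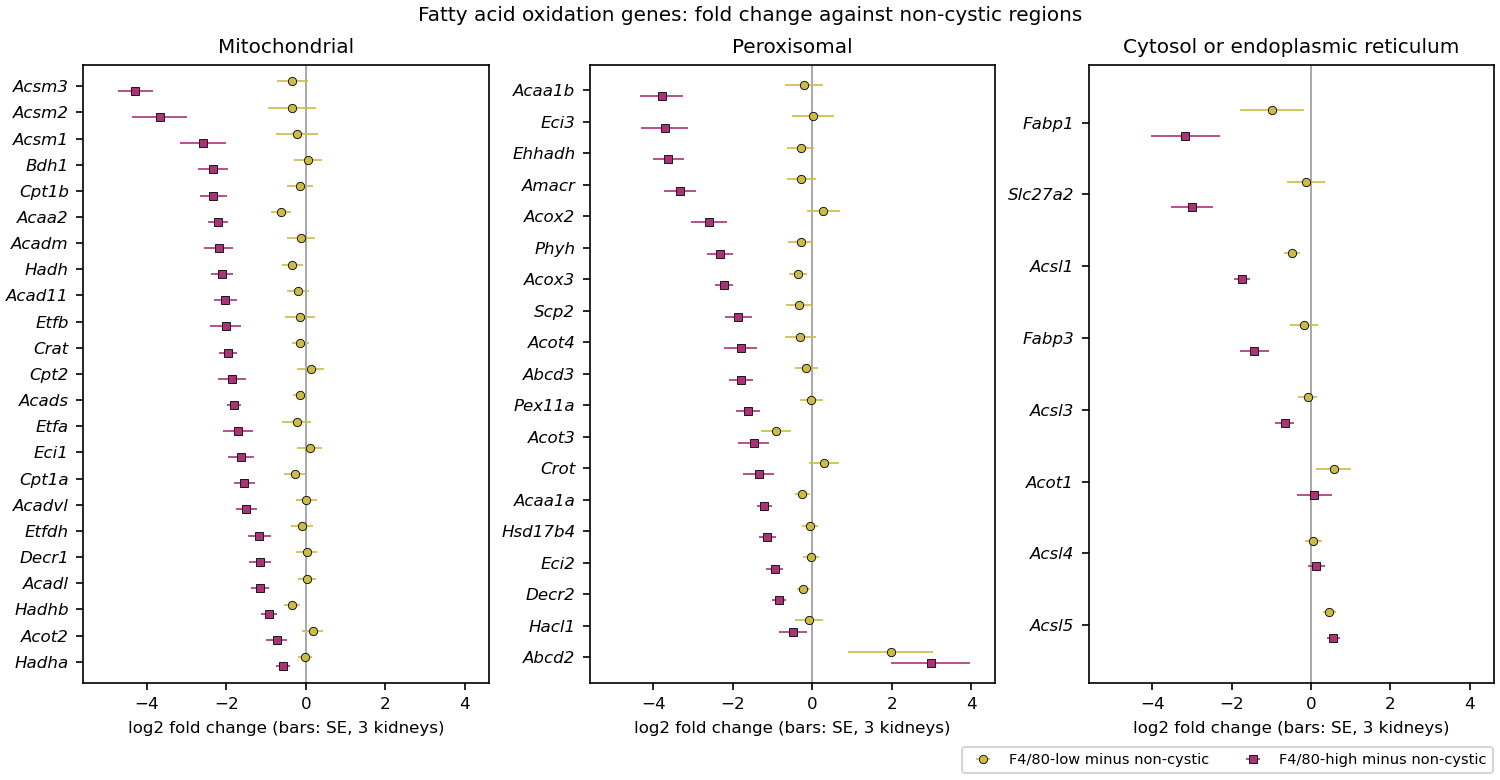
Log2 fold change of each of the 50 genes against non-cystic regions, with F4/80-low regions as circles and F4/80-high regions as squares. The 3 panels go by the place where the product acts, and bars show the standard error worked back from the edgeR fit to 3 kidneys. Most circles lie near 0, with Abcd2 at 1.97, while 46 of 50 squares lie below 0, from -4.30 for Acsm3 to -0.49 for Hacl1. Scaled by total counts, Hadha and Hacl1 in F4/80-high regions lie above 0.

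Among the mitochondrial genes all 23 fell in F4/80-high regions, with a median of -1.86, and 20 of the 23 were also called lower when libraries were scaled by total counts, under which Hadha had the opposite sign. The carnitine transferases that bring acyl groups into mitochondria all fell. Cpt1a, which makes acylcarnitine at the outer membrane and is the controlled step, stood at 214, 230.1 and 312 CPM in non-cystic tissue, 183, 193 and 238 in F4/80-low tissue and 48.1, 89.5 and 137 in F4/80-high tissue, as lowest, median and highest. The F4/80-high libraries did not overlap the others, and the fold change against non-cystic regions was -1.55 ± 0.27 (SE, adjusted p = 0.00209). Cpt2, which turns acylcarnitine back into acyl-CoA inside, went from 79.8, 104 and 144 to 16.9, 28.5 and 54.0 CPM, a fold change of -1.86 ± 0.35.

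Cpt1b, the muscle form of the outer-membrane enzyme, was scarce, at 3.50, 4.77 and 7.83 CPM in non-cystic and 0.401, 0.961 and 1.86 CPM in F4/80-high libraries, and fell by 2.33 on the log2 scale. Its highest library of all, at 12.6 CPM, was F4/80-low kidney 2 replicate 1, one of the pair with brown fat genes, and the part of those cells in that value was not tested. Of the 50-base stretches in Cpt1b transcripts, 78.6% also lie in Gm44502, so its counts are uncertain. Crat, which moves acetyl groups between carnitine and coenzyme A, changed by -1.95 ± 0.23.

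The acyl-CoA dehydrogenases open each round of the cycle and differ in the chain length they prefer. Medium-chain Acadm stood at 489, 615 and 883 CPM in non-cystic tissue, 372, 537 and 883 in F4/80-low tissue and 75.8, 132 and 242 in F4/80-high tissue. No F4/80-high library reached the lowest of the other groups, and the fold change was -2.20 ± 0.36 (adjusted p = 0.00148). Short-chain Acads changed by -1.81 ± 0.17, very-long-chain Acadvl by -1.50 ± 0.27 and long-chain Acadl by -1.16 ± 0.23, and Acad11, another member of this family, by -2.03 ± 0.29. In each of these 4 the F4/80-high libraries lay below all non-cystic libraries. The differences between the fold changes of these genes were not tested.

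The genes of the inner steps of the cycle fell as well, except that Hadha had the opposite sign under total counts, and differences between their fold changes were not tested. Hadha and Hadhb encode the 2 subunits of the trifunctional protein, which carries out the last 3 steps on long chains. Hadha stood at 98.0, 123 and 141 CPM in non-cystic and 74.9, 85.6 and 97.9 CPM in F4/80-high libraries, so that the ranges lay side by side without overlap. Its fold change of -0.57 ± 0.18 (adjusted p = 0.0276) was the smallest called fall of the module. Beside the change of sign under total counts, this call was lost in 8 of 34 alternatives, with adjusted p from 0.0530 to 0.251. These were fits without kidney 1, kidney 2, F4/80-high kidney 1 replicate 2, F4/80-high kidney 2 replicate 2 or both F4/80-low libraries of kidney 2, with upper quartile scaling, with the 2 region types alone, and with the libraries labelled 1 alone.

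Hadhb changed by -0.92 ± 0.20 and was not called under total counts (-0.32, adjusted p = 0.129), and 19.7% of its 50-base stretches were found in other genes. Hadha (chr5:30118304-30155162, minus strand, GRCm38) and Hadhb (chr5:30155248-30184593, plus strand) start next to each other and are read in opposite directions. Hadh, the dehydrogenase for shorter chains, went from 259, 308 and 344 CPM in non-cystic to 41.8, 78.3 and 104 CPM in F4/80-high libraries, at -2.11 ± 0.27 (adjusted p = 0.000445). Acaa2, the thiolase that releases acetyl-CoA, went from 336, 382 and 554 to 56.0, 99.8 and 135 CPM, at -2.22 ± 0.25. Both separated the F4/80-high libraries from all non-cystic and F4/80-low libraries.

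Unsaturated fatty acids need extra enzymes, of which mitochondrial Eci1, an enoyl-CoA isomerase, changed by -1.62 ± 0.33 and Decr1, a dienoyl-CoA reductase, by -1.16 ± 0.27. Electrons from the dehydrogenases pass to the flavoprotein made of Etfa and Etfb and on to Etfdh in the inner membrane. Etfa went from 772, 822 and 942 CPM in non-cystic to 119, 247 and 553 CPM in F4/80-high libraries, at -1.71 ± 0.38. Its F4/80-high libraries lay below all non-cystic ones and overlapped the F4/80-low ones. Etfb changed by -2.02 ± 0.39 and Etfdh by -1.17 ± 0.28. With the libraries labelled 1 alone, Decr1 and Etfdh were not called (adjusted p of 0.0527 and 0.0517), nor was Etfdh without kidney 1.

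The 3 Acsm genes, which encode ligases that activate medium-chain acids inside mitochondria, held the 3 largest falls of the mitochondrial group. Acsm2 was the most abundant member by count and stood at 4381, 5444 and 7605 CPM in non-cystic tissue, 2069, 4348 and 5239 in F4/80-low tissue and 45.0, 541 and 1072 in F4/80-high tissue. Both F4/80-high libraries of kidney 3, at 45.0 and 147 CPM, stood below the other 4, at 481 to 1072 CPM, and the fold change was -3.68 ± 0.69 (adjusted p = 0.00303). Acsm3 went from 95.9, 166 and 237 to 2.65, 8.86 and 14.3 CPM, and its -4.30 ± 0.44 (adjusted p = 0.000316) was the largest fall of the module.

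Acsm1 went from 115, 136 and 182 to 0.502, 32.3 and 39.9 CPM, at -2.59 ± 0.58 (adjusted p = 0.0128). Its call was lost without F4/80-high kidney 3 replicate 2 (adjusted p = 0.0921), without kidney 1 (0.0734), when no low-count filter was used (0.0833), and with the libraries labelled 1 alone (0.132). The 3 genes lie in a row on the plus strand of chromosome 7 of GRCm38, Acsm2 at chr7:119554340-119600690, Acsm1 at chr7:119607026-119662515 and Acsm3 at chr7:119760923-119787513. Acsm3 shares exon bases with Eri2 on the other strand, and the library kit does not mark strand, so part of its counts could belong to Eri2.

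Bdh1, which interconverts ketone bodies, changed by -2.34 ± 0.38. Acot2, a thioesterase that frees fatty acids from coenzyme A inside mitochondria, had ranges that overlapped, 6.23, 11.9 and 16.1 CPM in non-cystic and 4.41, 7.58 and 9.78 CPM in F4/80-high libraries. Its adjusted p was 0.0488 and rose above 0.05 in 24 of 34 alternatives, among them each kidney left out in turn. Of its 50-base stretches, 27.7% also lie in other genes, mainly Acot1.

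Of the 19 peroxisomal genes, 17 fell in F4/80-high regions, 1 rose and 1 was not called, with a median of -1.79, and 13 of the 19 were called lower under total counts. The importer Abcd3 and the oxidases Acox2 and Acox3 fell. Abcd3, the main transporter of acyl-CoA into peroxisomes, went from 169, 221 and 263 CPM in non-cystic to 32.6, 64.5 and 93.4 CPM in F4/80-high libraries, at -1.79 ± 0.30 (adjusted p = 0.00168). Acox2, the oxidase for branched chains and bile acid precursors, changed by -2.60 ± 0.44 and Acox3, another branched-chain oxidase, by -2.22 ± 0.24. For these 3 genes the F4/80-high and non-cystic libraries did not overlap.

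The bifunctional enzymes carry out the next 2 steps on different substrates. Ehhadh, the L-bifunctional enzyme, stood at 19.0, 26.4 and 30.9 CPM in non-cystic tissue, 14.7, 19.3 and 32.5 in F4/80-low tissue and 0.301, 2.11 and 3.83 in F4/80-high tissue. The F4/80-high libraries lay well apart from the others, at -3.63 ± 0.39 (adjusted p = 0.000259). Hsd17b4, the D-bifunctional enzyme, went from 104, 132 and 162 to 47.8, 63.5 and 72.8 CPM, at -1.13 ± 0.21 (adjusted p = 0.00264). Per length Ehhadh was the rarer, at 8.58 RPKM in non-cystic and 0.679 in F4/80-high regions, beside 39.0 and 17.7 RPKM for Hsd17b4.

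The thiolases Acaa1a and Acaa1b are close relatives on chromosome 9. Acaa1b stood at 195, 241 and 510.3 CPM in non-cystic tissue, 135, 219 and 391 in F4/80-low tissue and 4.11, 23.1 and 42.5 in F4/80-high tissue, a fold change of -3.80 ± 0.53 (adjusted p = 0.00134). Acaa1a went from 75.8, 93.4 and 116 to 24.8, 45.0 and 53.4 CPM, at -1.20 ± 0.19 (adjusted p = 0.00125). Both genes separated the F4/80-high from the non-cystic libraries. Since 30.5% of the 50-base stretches of Acaa1b also occur in Acaa1a, reads could be split or lost between them. Per length, the mean of Acaa1b went from 154 to 11.3 RPKM and that of Acaa1a from 22.0 to 9.47. The order held in these means but came close, and it did not hold in every library. In F4/80-high kidney 3 replicate 1, Acaa1b had 4.11 CPM over 1962 exon bases and Acaa1a 41.7 CPM over 4414. Scp2, whose longer form is a thiolase for branched chains, changed by -1.87 ± 0.34, with 29.7% of its 50-base stretches in the pseudogene Scp2-ps2.

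The isomerases Eci3 and Eci2 sit side by side on chromosome 13. Eci3 (chr13:34946614-34963810) went from 130.1, 206 and 321 CPM in non-cystic to 4.42, 15.1 and 37.8 CPM in F4/80-high libraries, at -3.72 ± 0.58 (adjusted p = 0.00254). Eci2 (chr13:34977748-35027096) went from 99.98, 121 and 158 to 54.9, 62.0 and 81.0 CPM, at -0.95 ± 0.21 (adjusted p = 0.00569). The 2 neighbours thus each separated the groups, with a far wider gap for Eci3 than for Eci2, a difference that was not tested. The call of Eci2 was lost without kidney 1 (0.0524) and under total counts (0.0892). Decr2, the peroxisomal dienoyl-CoA reductase, changed by -0.84 ± 0.17, and its call was also lost without kidney 1 (0.0543) and under total counts (0.313).

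Branched chains are handled by Amacr, a racemase, and by alpha-oxidation through Phyh and then Hacl1. Amacr went from 248, 308 and 448 CPM in non-cystic to 12.3, 34.8 and 52.7 CPM in F4/80-high libraries, at -3.33 ± 0.40 (adjusted p = 0.000407). Phyh went from 588, 709 and 823 to 66.0, 152 and 234 CPM, at -2.32 ± 0.33 (adjusted p = 0.000696). Hacl1, the next enzyme of that pathway, overlapped between the groups, at 26.4, 33.1 and 45.7 and 7.94, 30.3 and 41.9 CPM. Its fold change of -0.49 ± 0.36 was not called (adjusted p = 0.317) and was -0.21, 0.01 and -1.52 in kidneys 1, 2 and 3. Of the 50-base stretches of Hacl1, 28.4% also lie in other genes.

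Products leave peroxisomes as carnitine esters made by Crot, which changed by -1.35 ± 0.38 (adjusted p = 0.0217), or as free acids released by thioesterases, of which Acot4 changed by -1.81 ± 0.41 and Acot3 by -1.47 ± 0.39. The call of Crot was lost without kidney 1, without F4/80-low kidney 3 replicate 1 and under total counts, with adjusted p from 0.0507 to 0.120. That of Acot4 was lost without kidney 1, without F4/80-high kidney 3 replicate 2, with no filter and with the libraries labelled 1 alone (0.0511 to 0.0981). That of Acot3 was lost without kidney 1, without F4/80-high kidney 2 replicate 2, under total counts and with the libraries labelled 1 alone (0.0805 to 0.266). Pex11a, which elongates peroxisomes before they divide, changed by -1.61 ± 0.30. Abcd2, a second importer, was the peroxisomal gene called higher. It had 6 counts over the non-cystic, 30 over the F4/80-low and 74 over the F4/80-high libraries. It passed the low-count filter only through the cystic regions, so its call and separation cannot serve as evidence of a rise. No F4/80-high library of Abcd2 fell below 0.602 CPM and no non-cystic one exceeded 0.455. The fold change of 2.98 ± 1.00 (adjusted p = 0.0395) was not called without kidney 1 or 2, without any 1 of 5 single libraries (non-cystic kidney 1 or kidney 2 replicate 1, F4/80-high kidney 1, 2 or 3 replicate 2), or without both F4/80-low libraries of kidney 2 (adjusted p from 0.0541 to 0.190).

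**Figure D2:**
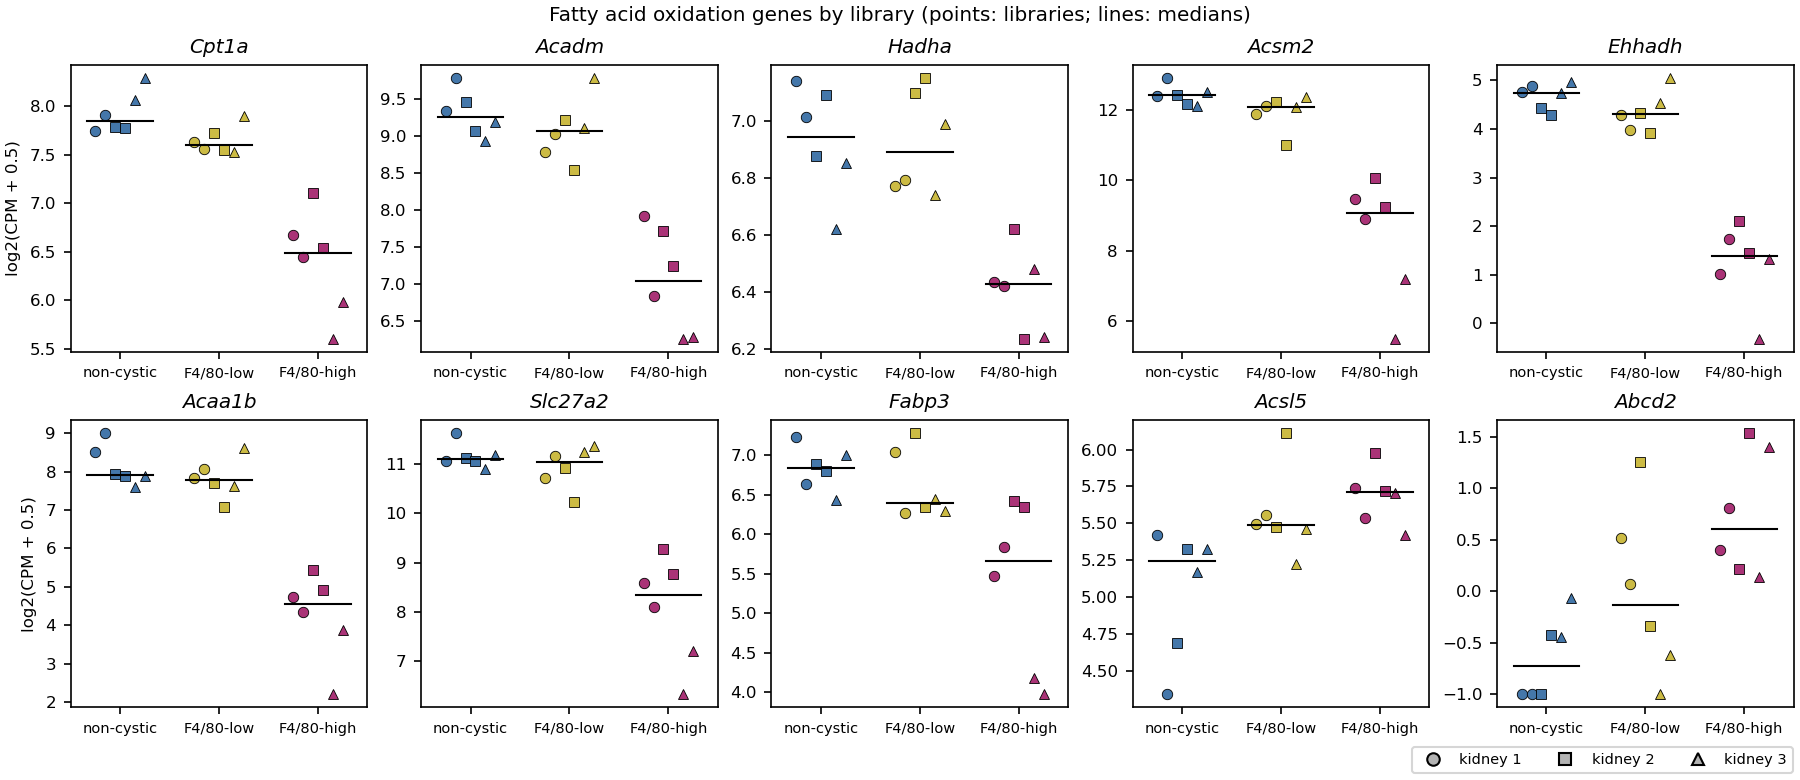
Level of 10 of the genes in each library as log2(CPM + 0.5), with libraries as points (circles for kidney 1, squares for kidney 2, triangles for kidney 3), lines at the median of 6 libraries and a scale of its own in each panel. Acsm2, Ehhadh, Acaa1b and Slc27a2 separate F4/80-high from the other regions by a wide gap, Hadha by a narrow one, and Acsl5 and Abcd2 have higher medians in F4/80-high than in non-cystic libraries.

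The 8 genes of the cytosol and endoplasmic reticulum were mixed: 4 fell, 1 rose and 3 were not called, with a median of -1.04. Slc27a2, which takes up and activates very long fatty acids, stood at 1906, 2193 and 3153 CPM in non-cystic tissue, 1208, 2112 and 2657 in F4/80-low tissue and 80.1, 327 and 616 in F4/80-high tissue. Its fold change was -2.99 ± 0.52 (adjusted p = 0.00204), and the F4/80-high libraries overlapped neither the non-cystic nor the F4/80-low ones.

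The long-chain synthetases went different ways. Acsl1, the form tied to oxidation in many tissues, went from 84.3, 95.4 and 109 CPM in non-cystic to 20.2, 32.8 and 40.9 CPM in F4/80-high libraries, at -1.74 ± 0.21 (adjusted p = 0.000343). Acsl5 stood at 19.8, 37.5 and 42.3 CPM in non-cystic and 42.3, 52.0 and 62.4 CPM in F4/80-high libraries, at 0.56 ± 0.16 (adjusted p = 0.0197). The Acsl5 ranges met, and the lowest F4/80-high library was above the highest non-cystic one by less than the rounding. The call of Acsl5 was lost without kidney 1, without kidney 2, without non-cystic kidney 1 replicate 2 and with the libraries labelled 2 alone, with adjusted p from 0.0863 to 0.210. Acsl3 was at -0.66 ± 0.24 (adjusted p = 0.0544) and passed the threshold in 7 of 34 alternatives, and Acsl4, which prefers arachidonic acid, was at 0.13 ± 0.21 (adjusted p = 0.670) and under total counts at 0.74 (adjusted p = 0.0395).

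Fabp3, a fatty acid binding protein of heart and kidney, went from 86.3, 114 and 149.8 CPM in non-cystic to 15.2, 50.4 and 85.3 CPM in F4/80-high libraries, at -1.43 ± 0.36 (adjusted p = 0.0140). The highest Fabp3 library was again F4/80-low kidney 2 replicate 1, at 155 CPM, and 29.2% of its 50-base stretches lie in the pseudogene Fabp3-ps1. Fabp1, the liver form, had 100 counts over the non-cystic and 23 over the F4/80-high libraries, ranges that overlapped, and a fold change of -3.17 ± 0.87 (adjusted p = 0.0166). Without the kidney as a block neither gene was called (adjusted p of 0.0625 for Fabp3 and 0.0703 for Fabp1), nor with the libraries labelled 2 alone (0.0644 and 0.0904), nor without kidney 1 (0.108 and 0.0503). Without kidney 2 the call of Fabp1 was lost too (0.0548). Acot1, the cytosolic thioesterase, was at 0.08 ± 0.43 (adjusted p = 0.900). Acot2, Acot1, Acot4 and Acot3 lie in this order on the plus strand of chromosome 12, from chr12:83987861-83993873 for Acot2 to chr12:84052144-84060402 for Acot3, and their values above ran from -1.81 for Acot4 to 0.08 for Acot1.

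Against F4/80-low cystic regions, F4/80-high regions again had lower levels of most members. By the edgeR test 41 of 50 were lower and 0 higher, where 14% of all tested genes were called lower and 10.3% higher. At an unadjusted p below 0.05, 44 were lower and 0 higher, beside 3226 and 2808 of the 16034 tested genes. DESeq2 called 42 lower and 0 higher, beside 2298 and 2054 of all tested genes. The median was -1.59 against 0.04 for all tested genes. In 35 members all F4/80-high libraries lay below all F4/80-low libraries, as in 9.62% of tested genes. By class, 22 of 23 mitochondrial, 16 of 19 peroxisomal and 3 of 8 other members were called. Over the 34 alternatives, 1290 of 1394 values for the 41 called members kept direction and call, and 104 lost the call. Calls were lost most often for Hadha (adjusted p = 0.0446 in the main edgeR test), in 19 of 34 alternatives. Acot2 lost its call in 11 of them, Decr2 and Fabp3 in 10 each and Acot4 in 8.

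The largest of these differences were those of Acsm3 at -3.96 ± 0.44, Eci3 at -3.74 ± 0.59 and Acaa1b at -3.59 ± 0.54. Hadhb, at -0.56 ± 0.20 (adjusted p = 0.0655), was the mitochondrial gene outside the calls and passed the threshold in 4 of 34 alternatives. This comparison shares its F4/80-high libraries with the comparison against non-cystic regions. Without kidney 1, 17 of 50 members were called lower, 8 mitochondrial and 8 peroxisomal, beside 521 of 16342 tested genes, while the members' median stayed at -1.65. Without both F4/80-low libraries of kidney 2, 35 members were called, beside 1408 of 16751 tested genes called lower. Total count scaling made 78.8% and upper quartile scaling 53.1% of all called genes higher instead of 42.3%. Under these scalings 34 and 38 members were lower, beside 1127 and 1855 of the 16034 tested genes.

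Summed over the 50 genes, the level was 14819 to 23935 CPM in non-cystic libraries (median 18103), 9922 to 20036 in F4/80-low (median 15186) and 1868 to 5946 in F4/80-high (median 4019). Without the pair of kidney 2 the F4/80-low sums ran from 13181 to 20036 CPM. The 6 F4/80-high sums lay below all others. The mitochondrial sum had medians of 12026, 9556 and 2493 CPM and the peroxisomal sum 3591, 3032 and 976 CPM in the same order. Within F4/80-high regions both libraries of kidney 3 had the lowest sums, at 1868 and 2234 CPM.

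**Figure D3:**
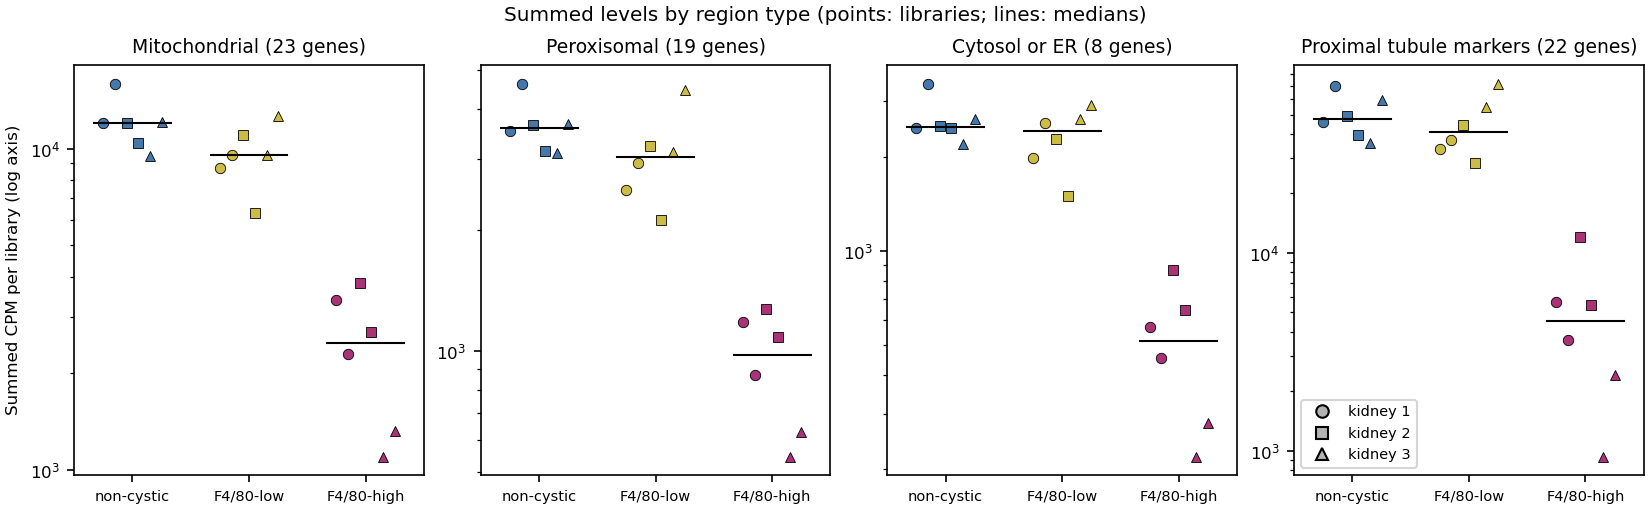
Summed CPM per library on a log axis for the 23 mitochondrial, 19 peroxisomal and 8 other members and for 22 proximal tubule markers, with kidneys by symbol and lines at the medians of 6 libraries. In all 4 panels the F4/80-high libraries lie below the rest, with kidney 3 lowest, and the markers spread over the widest range, from 934 to 11991 CPM in F4/80-high regions.

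Much of the mitochondrial sum was 1 gene. Acsm2 made up 28.9 to 31.8% of the module's CPM in non-cystic libraries, 20.9 to 29.1% in F4/80-low tissue and 2.41 to 18.0% in F4/80-high tissue. The ratio of mitochondrial to peroxisomal CPM was 3.06 to 3.44 in non-cystic tissue, 2.84 to 3.44 in F4/80-low tissue and 2.02 to 2.99 in F4/80-high tissue, so that it was lower in every F4/80-high library than in any non-cystic one. Without the pair of kidney 2 the F4/80-low share of Acsm2 was 26.1 to 29.1% and the ratio again 2.84 to 3.44. Without Acsm2 the ratio was 1.65 to 1.88, 1.66 to 2.01 and 1.86 to 2.27, and the order of the groups turned round, with overlap, and without that pair the F4/80-low values were 1.66 to 1.94. Which class had the larger drop in its sum thus depended on Acsm2.

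**Figure D4:**
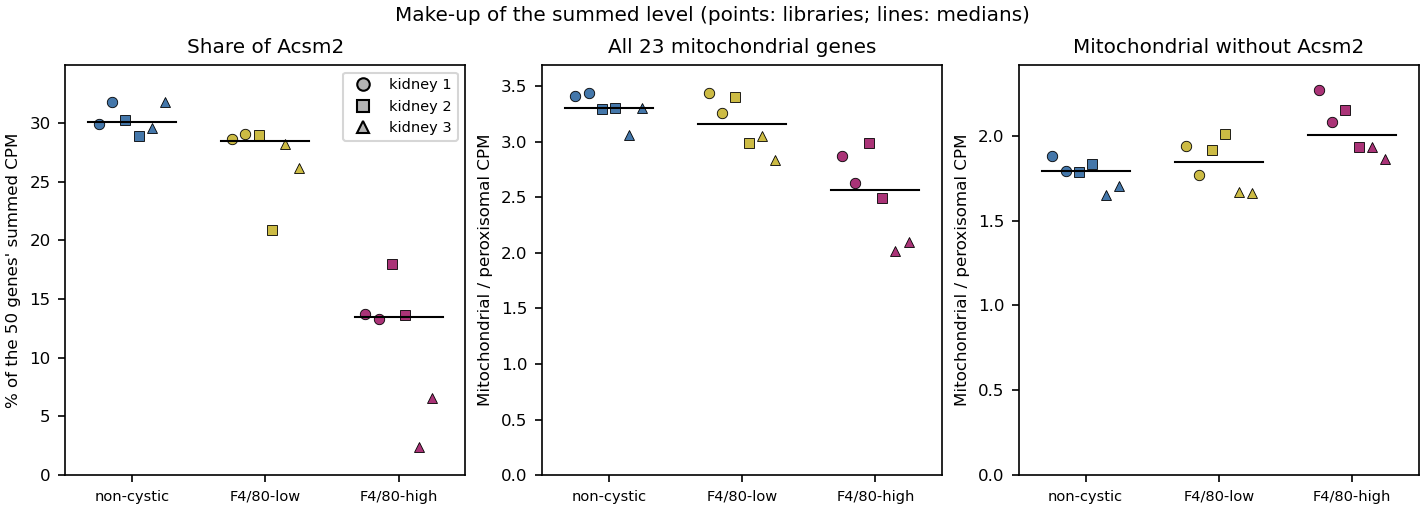
Share of Acsm2 in the summed CPM of the 50 genes, and the ratio of mitochondrial to peroxisomal CPM with and without Acsm2, for each library, with kidneys by symbol and lines at the medians of 6 libraries. The share drops from a median of 30.1% in non-cystic to 13.4% in F4/80-high libraries, and the median ratio goes from 3.30 to 2.56 with Acsm2 and from 1.79 to 2.01 without it.

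Markers of several cell types differed between F4/80-high and non-cystic regions, where 19.5% of all tested genes were called lower and 19.7% higher. Of 22 proximal tubule markers, none of them a member, 21 were lower in F4/80-high than in non-cystic regions (Slc5a2, at -2.72, had an adjusted p of 0.0558), with a median of -3.09. Their summed level ran from 35691 to 69453 CPM in non-cystic tissue, 28409 to 71416 in F4/80-low tissue and 934 to 11991 in F4/80-high tissue. Without the pair of kidney 2 the F4/80-low sums ran from 33352 to 71416 CPM, and no marker was at 0 in a region type. Of 12 macrophage markers 11 were higher and 9 of 9 tested fibroblast markers, and the macrophage sum ran from 95.5 to 181 CPM in non-cystic and from 2301 to 6604 in F4/80-high libraries. Of 12 markers of thick limb, distal and collecting tubules 7 were lower, as were 5 of 5 blood markers, and 7 of 8 lymphocyte markers were higher. Of 8 endothelial markers 1 was lower and 1 higher, and of 3 tested adipocyte and muscle markers 1 was higher. Of 5 podocyte markers none was called by the edgeR test (1 was higher at an unadjusted p below 0.05, beside 3894 of all tested genes). Calls in these 3 lists were too few to set apart from the shares over all genes. Mitochondrially encoded genes took 10.6 to 15.4% of the counts in non-cystic and 1.49 to 4.06% in F4/80-high libraries, and Spp1 0.0433 to 0.332% and 6.41 to 14.1%. The part of these cell types and shares in the members' falls was not tested.

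Counted per proximal tubule marker, most members were higher in F4/80-high regions. With the summed marker counts of each kidney and region in place of its library size, 33 members were called higher, 0 lower and 17 not called in F4/80-high against non-cystic regions, with a median of 1.92. On this scale 94.3% of all tested genes were called higher and 0.0686% lower, with a median of 3.83. The members' median was thus below that of all genes and above that of the markers themselves, 0.37. Against F4/80-low regions 34 members were higher and 0 lower, beside 94.7% and 0.0936% of all tested genes. Without kidney 1 the higher calls dropped to 4 and 0. The calls over all tested genes in that fit are not given here, so this drop cannot be read as particular to the members.

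Members stood at different distances from the markers on this scale. Acsm3 was at -0.76 ± 0.82, Acsm2 at -0.35 ± 0.65, Acaa1b at -0.28 ± 0.77, Eci3 at -0.27 ± 0.79 and Ehhadh at -0.13 ± 0.91, the 5 members below 0 and none of them called. Slc27a2, at 0.48 ± 0.67, and Amacr, at 0.21 ± 0.76, lay near them. Hadha, at 3.26 ± 0.82, Hadhb, at 2.79 ± 0.80, and Acsl5, at 4.35 ± 0.89, were among those called higher, that is, their counts fell less than the marker counts or rose.

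Over the 18 libraries, log2 CPM of members followed the log2 marker sum to different degrees, from a Pearson r of 0.99 for Slc27a2 and Eci3 to -0.62 for Abcd2. These correlations are descriptions over libraries that share kidneys and region types. The 5 genes most like Acsm2 in level over the 18 libraries were Fahd1, Aqp11, Sord, Inmt and Miox, with r from 0.993 to 0.996. For Scp2 they were Zfp706, Atp5f1, BC031181, Acat1 and Atp5c1 (0.989 to 0.995), and for Slc27a2 they were Mpv17l, Slc17a3, Gcdh, Slc22a18 and Treh (0.991 to 0.994).

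Most of the other genes of the pathway were also lower. Of 40 tested genes on a list of further fatty acid oxidation genes, 30 were lower and 1 higher in F4/80-high than in non-cystic regions, with a median of -1.27. Over all tested genes, 19.5% were called lower and 19.7% higher in this comparison. Mlycd, which removes the malonyl-CoA that blocks Cpt1a, averaged 32.3 ± 6.31 CPM (SD, n = 3 kidneys) in non-cystic and 8.43 ± 1.13 in F4/80-high regions. Ivd, of leucine breakdown, averaged 232 ± 30.1 and 39.1 ± 14.9 CPM, and Pccb, of propionyl-CoA use, 142 ± 7.11 and 41.1 ± 11.9 CPM. The gene that rose was Acot7, a thioesterase best known from brain, at 1.14 ± 0.28 (adjusted p = 0.0105), named after its value was seen. In F4/80-low regions none of the 40 was called, beside 0.0249% of all tested genes lower and 1.51% higher.

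Of 15 genes that build peroxisomes 10 were lower and 0 higher in F4/80-high regions, beside 19.5% and 19.7% of all tested genes. Their median was -0.72. Pex11g changed by -1.45 ± 0.21, Pex16 by -1.38 ± 0.19 and Pex5, the import receptor for matrix enzymes, by -1.26 ± 0.23. Of 25 tested genes of fatty acid synthesis and storage 10 were lower and 1 higher, beside the same shares of all tested genes. Their median was -0.43. Me1 changed by -2.55 ± 0.31, Dgat2 by -2.31 ± 0.29, Lpl by -2.07 ± 0.32 and Mlxipl by -1.48 ± 0.21, while Plin3, a lipid droplet coat protein, rose by 0.47 ± 0.15.

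Of 15 regulators of these genes 9 were lower and 1 higher, beside 19.5% and 19.7% of all tested genes, with a median of -1.17. Ppara, which encodes PPAR alpha, averaged 44.4 ± 2.97 CPM in non-cystic tissue, 36.9 ± 3.53 in F4/80-low tissue and 9.45 ± 5.95 in F4/80-high tissue, at -2.36 ± 0.32 (adjusted p = 0.000829). Hnf4a, a factor of proximal tubule identity, changed by -2.06 ± 0.31, Lpin1 by -1.36 ± 0.17 and Esrra by -1.25 ± 0.19. Pparg was the regulator that rose, from a mean of 0.712 to 3.52 CPM, at 2.66 ± 0.77 (adjusted p = 0.0215).

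PPAR alpha binds, with RXR, a direct repeat of AGGTCA with 1 base between the copies. The 250 bases before the start of each gene were searched on both strands for this repeat, AGGTCA then any 1 base then AGGTCA, with up to 2 mismatches in the 12 fixed bases, in the RefSeq promoter table of GRCm38.p6. A promoter was matched for 43 of the 50 members. The repeat was found in 3 of them, 6.98%, and in 3.72% of all 27025 genes, and a single AGGTCA in 18.6% of members and 15.8% of all genes. The 3 stretches are shown because they are the members' promoters that hold such letters, read on the strand of the gene, with the repeat in capitals; in each it lies on the opposite strand, so it reads as its reverse complement.
Fabp1 (chr6:71199798-71199838, plus strand): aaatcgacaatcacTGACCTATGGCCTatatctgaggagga
Etfa (chr9:55512294-55512334, minus strand): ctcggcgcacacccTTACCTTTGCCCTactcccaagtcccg
Acot4 (chr12:84038352-84038378, plus strand): tcagccccgaagcaTGACCTTTGGCCG
Counted from the RefSeq start, the repeat lies 54 to 67 bases ahead in Fabp1 and 64 to 77 in Etfa, and the one in Acot4 ends at the start. Fabp1, a known target of this receptor, differed from the repeat at 1 of 12 bases and the other 2 genes at 2. All 3 genes fell in F4/80-high regions, as did 44 of the 50 members, so their fall does not set them apart. A match of letters is not a bound site, and binding was not measured.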

How the data were processed

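The authors deposited raw counts per gene and library for 18 libraries, without normalization. The submitters' processing notes name the mouse build GRCm38 (mm10) and, without their roles, HTSeq 0.11.0, fastp 0.20.1 and FastQC 0.11.9. Which aligner, annotation release and strand setting served is not given in the sources used here. Per the labels' protocols, RNA of frozen kidney was extracted with TRI reagent, and the low-input library kit leaves strand unmarked, so that the counts of 23 members with exons overlapping another gene are uncertain. Symbols came from GENCODE release 21 for GRCm38, and 127 identifiers without a symbol, holding 0.00837% of the counts, were left unnamed.

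Both libraries of each kidney and region were added up, which gave 9 sums. The model was edgeR 4.0.16 under R 4.3.3 (TMM scaling, filterByExpr by region type, robust quasi-likelihood test), with region type and kidney as terms, and left 4 residual degrees of freedom and 16034 genes holding 99.8% of the counts. The kidney number pairs the samples because all region types come from the same kidneys, per the labels. P-values were Benjamini-Hochberg adjusted over all 16034 genes and called below 0.05. SE was worked back from each F statistic and its log2 fold change. Fold changes are log2 fitted values. Library CPM use the same scaling of the 18 libraries, and values per kidney add 0.5 CPM before the log2. RPKM divide by the total exon length of a gene. A second fit replaced library size by the summed counts of 22 proximal tubule markers. The test was checked on simulated counts with a constant spread, no kidney effect and far fewer changed genes than were called here. That check therefore does not cover the effects of scaling or of the kidney in these data.

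All 50 members are named, and of each other list up to 4 genes with the smallest p in F4/80-high against non-cystic regions; Acot7, Pparg, Plin3 and Slc5a2 stand outside that rule, picked once their values were known. Members, lists and rules were chosen with earlier results of these data known. The alternatives were 34: other scalings, filters and tools (DESeq2 1.42.0, limma 3.58.1 voom), no kidney block, libraries as samples, 1 replicate label alone, each kidney or library left out, and, chosen after seeing the data, both F4/80-low libraries of kidney 2 left out. No promoter was matched for Cpt1b, Hsd17b4, Abcd2, Crat, Decr1, Amacr and Acaa2.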

Additional observations from a re-analysis of the deposited data

Results flagged for a closer look

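In 8 of 159 sets of 6 libraries (50 genes and 3 class sums in 3 region types), 1 library stood apart from the other 5 by Dixon's gap test. Chance marks about 1 in 20 such sets, so the number found is near the chance rate. Among F4/80-low libraries, kidney 2 replicate 2, the library with 8.90% of its counts in Spp1, was lowest for Acsm2 (2069 CPM against 3778 to 5239 in the other 5) and Hadh (137 CPM against 221 to 295), and highest for Acsl4 (44.7 CPM against 20.3 to 24.6). Kidney 3 replicate 2 was highest for Cpt2 (183 CPM against 84.2 to 111) and Acadl (262 CPM against 133 to 171). Among F4/80-high libraries, kidney 3 replicate 1, the library with the lowest proximal tubule marker sum, was lowest for Acsm1 (0.502 CPM against 13.5 to 39.9) and Acot4 (2.01 CPM against 8.82 to 19.3), and kidney 1 replicate 1 was lowest for Acads (4.69 CPM against 15.5 to 23.5). Leaving out any 1 of these 4 libraries left Cpt2, Acadl, Acads, Hadh, Acsm1, Acsm2 and Acot4 called lower in F4/80-high against non-cystic regions.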

How the results depend on the processing

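Over 34 alternatives the count of members lower in F4/80-high than in non-cystic regions stayed within 1.5 times of 44, at 32 to 45 with 1 kidney or library left out and 36 to 45 otherwise, with 18 to 23 mitochondrial and 12 to 17 peroxisomal members. Beside these, 1622 to 3275 of all tested genes were called lower with 1 left out and 1468 to 3663 otherwise. Without the kidney block, 42 members were lower in that comparison, 40 in F4/80-high against F4/80-low regions and 0 in F4/80-low against non-cystic regions. All tested genes called lower in that fit were 3139, 2274 and 4 of 16034, in the same order. The 2 members higher against non-cystic regions became 1 with at least 50 counts in 3 sums, with the 18 libraries fitted with a kidney block or a random effect, with libraries labelled 1 or 2 alone, and without both F4/80-low libraries of kidney 2, and 0 to 2 with 1 kidney or library left out. Beside these, 1941 to 3921 of all tested genes were higher in the named settings and 1737 to 3327 with 1 kidney or library left out. Against F4/80-low regions, 17 to 42 members were lower with 1 left out (8 to 23 mitochondrial, 8 to 16 peroxisomal), the lowest without kidney 1, and under total counts Acsl5 became the 1 member higher. Beside these, 521 to 2441 of all tested genes were lower with 1 left out, and 4194 were higher under total counts. In F4/80-low against non-cystic regions 0 to 1 was lower, beside 0 to 74 of all tested genes. Per proximal tubule marker, 4 to 35 members were higher against non-cystic and 0 to 33 against F4/80-low regions with 1 left out. In the full fit 94.3% and 94.7% of all tested genes were called higher, and the shares with 1 left out are not given here. Of 1558 values for the 46 members called against non-cystic regions, 1482 kept direction and call, 75 lost the call and 1 reversed, Hadha under total counts (0.0503). The cause of these shifts was not tested. Low counts limit Abcd2 and Fabp1.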
